A study of Mus musculus with 4 samples.

Results

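The 3136 regions described here were open chromatin sites of mouse embryoid bodies that lay away from promoters, were found in all 4 ATAC-seq libraries, and ranked higher among such sites in both CTCF-K20R libraries than in both WT libraries. They were chosen by that difference. Merging the overlapping peaks of all libraries gave 80380 regions. Of these, 24323 were autosomal, had a peak in every list and had a strongest summit over 1000 bp from every protein-coding transcription start site (TSS), and 23605 remained after 718 in stretches of chromosomes 2 and 8 were left out. Each was ranked in each list from 0 (weakest) to 100 (strongest) by its highest −log10 p, the strength of the peak against its local background. Members had both K20R ranks above both WT ranks and a mean K20R rank at least 20 points above the mean WT rank, which held for 13.3% of the 23605 common distal regions. The mirror set, here called weakened, had both K20R ranks below both WT ranks by the same margin and held 3421 regions (14.5%). Without the limit of 20 points, both K20R ranks were above both WT ranks in 7244 regions (30.7%) and below them in 6534 regions (27.7%). These counts follow from the rule and were not tested.

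Both genotypes were E14Tg2A embryonic stem cells, which were grown on mitomycin C-treated mouse embryo fibroblasts with leukemia inhibitory factor and 2i, and then made into embryoid bodies in hanging drops without that factor, and both were collected on day 4. WT cells carried unedited CTCF, and CTCF-K20R cells had lysine 20 of CTCF changed to arginine by CRISPR/Cas9. There were 2 libraries per genotype, and how many edited clones they came from is not given in the sources used here. ATAC-seq measures where a transposase can cut chromatin. The lists held 59783 and 66703 peaks in WT and 51823 and 55832 peaks in K20R, and the second library of each genotype had the higher folds.

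Distal open sites include enhancers, insulators bound by CTCF, short genes read by RNA polymerase III such as tRNA genes, and copies of transposable elements. CTCF is a zinc finger protein that binds a long, well-conserved motif and, with cohesin, sets the borders of chromatin loops. Transposable elements are stretches of DNA that have copied themselves through the genome. Their copies carry related sequences and can hold binding sites for the factors of early embryonic cells.

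Sequences of some members are shown first. In 21 members on 12 chromosomes, the 201 bases around the summit shared runs of sequence with one another, and all 21 regions of this kind among the common distal sites were members. This set was picked because all of its regions were members, so that count follows from the choice. The windows below reach 75 bases to each side of the summit (mm10, 5′ to 3′ on the strand named). The capitals mark a run of 20 bases that occurred in 10 of the 21 regions, as many as any run did. Each is named by the nearest protein-coding TSS.
Oprm1 (chr10:6349486-6349636, plus strand): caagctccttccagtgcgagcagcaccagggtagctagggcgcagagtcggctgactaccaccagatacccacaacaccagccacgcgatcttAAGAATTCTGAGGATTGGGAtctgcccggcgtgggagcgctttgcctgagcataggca
Csmd3 (chr15:47562376-47562526, plus strand): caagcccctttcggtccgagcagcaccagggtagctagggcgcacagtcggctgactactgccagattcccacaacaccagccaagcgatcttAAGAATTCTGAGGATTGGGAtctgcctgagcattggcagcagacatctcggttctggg
Samd12 (chr15:53983973-53984123, minus strand): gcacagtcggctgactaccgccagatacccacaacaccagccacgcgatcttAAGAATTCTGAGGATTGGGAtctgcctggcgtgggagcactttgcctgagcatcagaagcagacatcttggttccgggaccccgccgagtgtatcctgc
Clec4a2 (chr6:123138074-123138224, minus strand): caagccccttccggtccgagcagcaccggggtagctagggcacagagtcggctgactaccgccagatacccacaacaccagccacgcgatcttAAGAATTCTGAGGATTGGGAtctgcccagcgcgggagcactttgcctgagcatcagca
Vmn2r83 (chr10:79435461-79435611, plus strand): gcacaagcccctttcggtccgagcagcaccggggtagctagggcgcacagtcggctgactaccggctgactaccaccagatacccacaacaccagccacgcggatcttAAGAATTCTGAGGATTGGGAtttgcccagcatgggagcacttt
Without gaps and with the capitals aligned, the window near Oprm1 shared 95.8% of 95 positions with that near Samd12, 94.7% with that near Clec4a2, 81.1% with that near Csmd3 and 57.9% with that near Vmn2r83. The window near Vmn2r83 has an extra g shortly before the capitals, which puts the bases to its left out of register. Its share with gaps allowed was not computed. The next window belongs to the largest set of regions with shared sequence, of which 131 of 313 were members, and the capitals mark its most common run of 20 bases.
Tbl1xr1 (chr3:22293627-22293777, minus strand): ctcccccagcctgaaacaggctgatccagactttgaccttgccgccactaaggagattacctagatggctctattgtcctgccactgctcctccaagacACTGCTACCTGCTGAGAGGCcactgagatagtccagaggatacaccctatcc
The next 3 are tRNA genes at member summits, shown whole as RefSeq (GRCm38.p6, the same build) gives them, with GTTCGA in capitals, letters of the inner promoter to which the factor TFIIIC binds.
tRNA-Ile near Vmn1r223 (chr13:23270421-23270516, minus strand): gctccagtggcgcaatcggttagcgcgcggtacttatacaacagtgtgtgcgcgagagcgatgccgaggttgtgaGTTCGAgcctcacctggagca
tRNA-Glu near Acpp (chr9:104408667-104408738, minus strand): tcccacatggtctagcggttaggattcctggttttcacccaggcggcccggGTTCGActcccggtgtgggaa
tRNA-Leu near Zfp184 (chr13:21914838-21914943, plus strand): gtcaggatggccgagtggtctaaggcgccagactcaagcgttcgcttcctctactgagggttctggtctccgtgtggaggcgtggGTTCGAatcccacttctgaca
The last 3 are members with the CTCF consensus, shown in capitals with 30 bases to each side.
Syt6 (chr3:103541357-103541428, plus strand): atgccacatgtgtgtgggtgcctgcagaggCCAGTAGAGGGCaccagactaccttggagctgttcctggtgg
Tnk2 (chr16:32638627-32638698, plus strand): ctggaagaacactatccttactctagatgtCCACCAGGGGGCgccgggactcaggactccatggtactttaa
Armc3 (chr2:19276432-19276503, minus strand): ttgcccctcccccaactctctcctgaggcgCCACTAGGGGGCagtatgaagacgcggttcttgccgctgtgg

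Members were weak or middling sites in WT and stronger ones in K20R. Their median rank was 26.04 and 26.9 in the WT libraries and 62.4 and 61.6 in the K20R libraries. The median −log10 p was 7.90 and 13.6 in WT against 16.3 and 28.3 in K20R, and the median fold over background 3.93 and 5.29 in WT against 5.64 and 7.60 in K20R. In reads over the summit, recovered from the deposited fold and p, members had medians of 18 and 27 in WT against 32 and 47 in K20R, where all common distal regions had 27 and 40 in WT against 28 and 40 in K20R. Their peaks were also wider in K20R, with medians of 725.5 and 827.5 bp against 536 and 624 bp in WT (all common distal regions: 635 and 748 bp in K20R, 666 and 738 bp in WT). Set against the median of each library, the level of a member was 0.75 higher in K20R on the log2 scale (median of members, middle 50% from 0.58 to 0.99), and 756 members (24.1%) were higher by at least 1. These values come from the same contrast that chose the members.

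**Figure D1:**
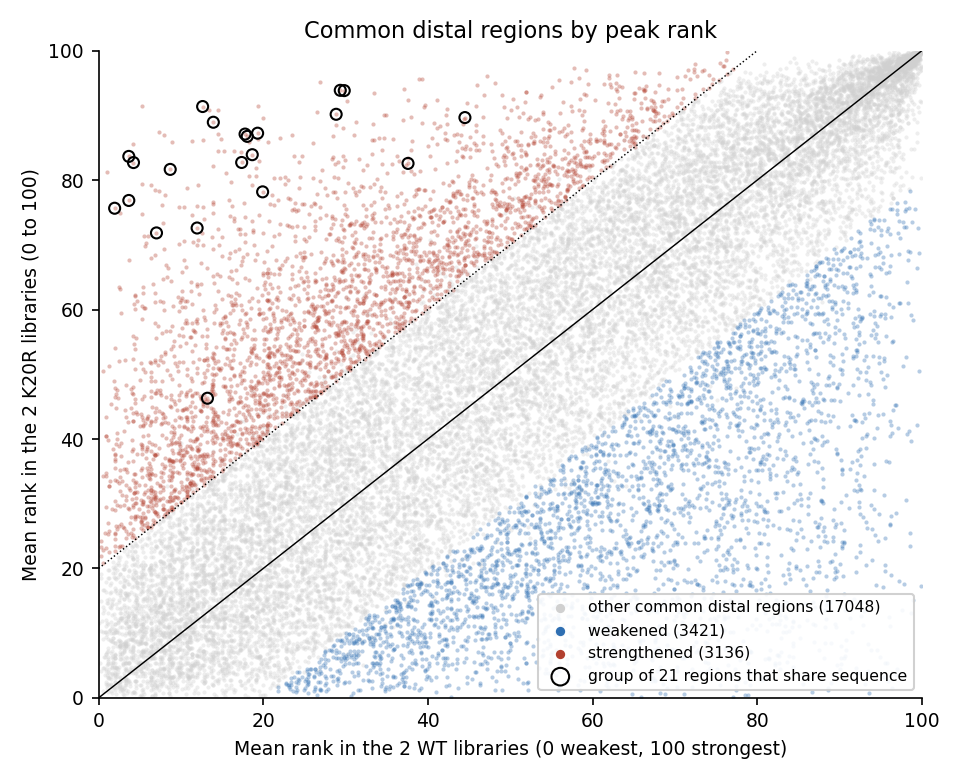
Mean rank of each common distal region in the WT libraries (x axis) and in the K20R libraries (y axis), both from 0 to 100. Points on or above the dotted line with both K20R ranks above both WT ranks are the 3136 members. Blue points are the 3421 weakened regions, at least 20 points below the solid diagonal, and light grey points are the other common distal regions. Circles mark the 21 regions with shared sequence, of which all but the one near Cbln4 lie at the upper left.

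The difference in mean rank ran from 20.0 points to 86.1 points with a median of 29.3, and 86 members were at or above 60. The limit falls in a continuous spread. Just inside it were regions near Magi1 (20.01 points), Pik3c3 (20.01) and Gcnt2 (20.03), and just outside it, with both K20R ranks above both WT ranks, regions near Tm2d2 (19.995) and Miga1 (19.99). To see how far 1 pair of libraries describes the other, regions were also chosen on the first replicates alone. The 4145 regions that were at least 20 points higher in K20R replicate 1 than in WT replicate 1 had a median difference of 17.6 points in the second replicates, which the choice had not used. Of these, 83.1% were above 0 and 45.9% again reached 20 points, where over all common distal regions the median was 0.74 points, 52.3% were above 0 and 15.9% reached 20 points. Chosen on the second replicates, 3763 regions had a median of 20.4 points in the first. Most of these regions thus lay on the same side in the other pair of libraries, and 50.5% of the second choice reached 20 points there.

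The largest difference was at an intergenic region upstream of Arid2, which encodes a subunit of a chromatin remodelling complex. The region (chr15:96131542-96132436, 155.6 kb from the TSS) ranked 5.03 and 5.57 in WT against 91.9 and 90.9 in K20R, with 15 and 22 reads over the summit in WT against 79 and 122 in K20R. Its summit lay in a repeat, which the reference prints in lower case, but it belonged to no set with shared sequence. The second was in an intron of Dnah7c, a dynein heavy chain gene, with 9 and 14 reads in WT against 50 and 79 in K20R. The third lay in an intron of Hipk2, a protein kinase gene, nearest to the TSS of Clec2l, and had 9 and 8 reads in WT against 38 and 63 in K20R. It was not in a repeat. An intergenic region near Mrpl42, a gene of the mitochondrial ribosome, had 14 and 15 reads in WT against 55 and 91 in K20R. At these 4 regions neither genotype overlapped the other, as the rule requires.

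Of the 12 members with the largest differences, 4 belonged to the set of 21 (near Oprm1, Pcmtd1, Csmd3 and Cyp2j8), 3 to the largest set with shared sequence (near Dnah7c, Nkain3 and Naaladl2), and 1 lay at a tRNA gene (near Vmn1r223). The other 4 were the regions near Arid2, Clec2l and Mrpl42 and one in an intron of Dst, which encodes the cytoskeletal linker dystonin. The Dst region had 16 and 16 reads in WT against 60 and 90 in K20R. All 12 were between 75.02 and 86.1 points higher in K20R, and none had the CTCF consensus.

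Sets with shared sequence were found from sequence alone. Regions were joined where the 201 bases around their summits had at least 10 runs of 20 bases in common, simple repeats left out. Of the 23605 common distal regions, 1289 fell into 186 such sets (groups in the plots), and 16 sets had at least 10 regions. Members made up 398 of the 1289 (30.9%, Wilson 95% interval 28.4% to 33.5%) and 12.3% of the other 22316 regions (11.8% to 12.7%). The weakened set showed the reverse order, with 6.83% of the regions in sets (5.57% to 8.34%) and 14.9% of the others. Both K20R ranks were above both WT ranks in 52.7% of the regions in sets and below them in 15.3%. Intervals here and below cover counting error only, since regions are not replicates. These sets were drawn up after the values had been seen.

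The set of 21 stood apart from the rest. Its median ranks were 10.7 and 15.7 in WT against 86.6 and 85.6 in K20R, and the median difference was 65.4 points (33.1 to 80.01). The reads over the summit were between 9 and 21 in WT replicate 1 and between 11 and 30 in WT replicate 2. They were between 23 and 64 in K20R replicate 1 and between 28 and 89 in K20R replicate 2. The median level was 1.73 higher in K20R on the log2 scale (0.76 to 2.15). Of the 86 members at or above 60 points, 17 were of this set and 43 of any set. The regions were spread over the genome, 17 between genes and 4 in introns, at a median of 39.96 kb from the nearest protein-coding TSS, and 18 of the 21 summits were in a repeat. The set was picked after its values had been seen, because all of its regions are members, so its ranks describe the choice. Values at near-identical copies are uncertain, since reads of low mapping quality had been removed before peaks were called. How many copies of the sequence the cells of each genotype carried was not examined.

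The region upstream of Oprm1, the gene of the mu opioid receptor, was the set's most changed (chr10:6349101-6350162, 408.9 kb from the TSS). It had 10 and 12 reads over the summit in WT against 41 and 56 in K20R. The region near Csmd3 had 9 and 14 in WT against 35 and 61 in K20R, and the one near Samd12 had 17 and 12 in WT against 43 and 71 in K20R. In an intron of Clec4a2, a lectin receptor gene, there were 12 and 30 in WT against 64 and 85 in K20R. The least changed of the set was near Cbln4, with 12 and 18 in WT against 23 and 28 in K20R. At all 5 of these regions both K20R libraries had more reads than both WT libraries.

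Peaks outside the common regions were not used by the rule and can be set beside this. The run of 20 bases shown in capitals near Oprm1 was found at 169 places on the autosomes, and 39 merged regions held at least 1 of them. Of the 39, 17 had a peak in all 4 lists, which fixes their peaks in both genotypes, so only the other 22 are described. Among these 22, 13 had a peak in both K20R lists and in neither WT list, 9 in both K20R lists and 1 WT list, and none in both WT lists. The run itself was taken from the set picked for its values. Over all 41145 autosomal regions that were not in all 4 lists, 5.94% had a peak in both K20R lists and no WT list, 20.0% in both WT lists and no K20R list, and 32.7% in both WT lists.

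**Figure D2:**
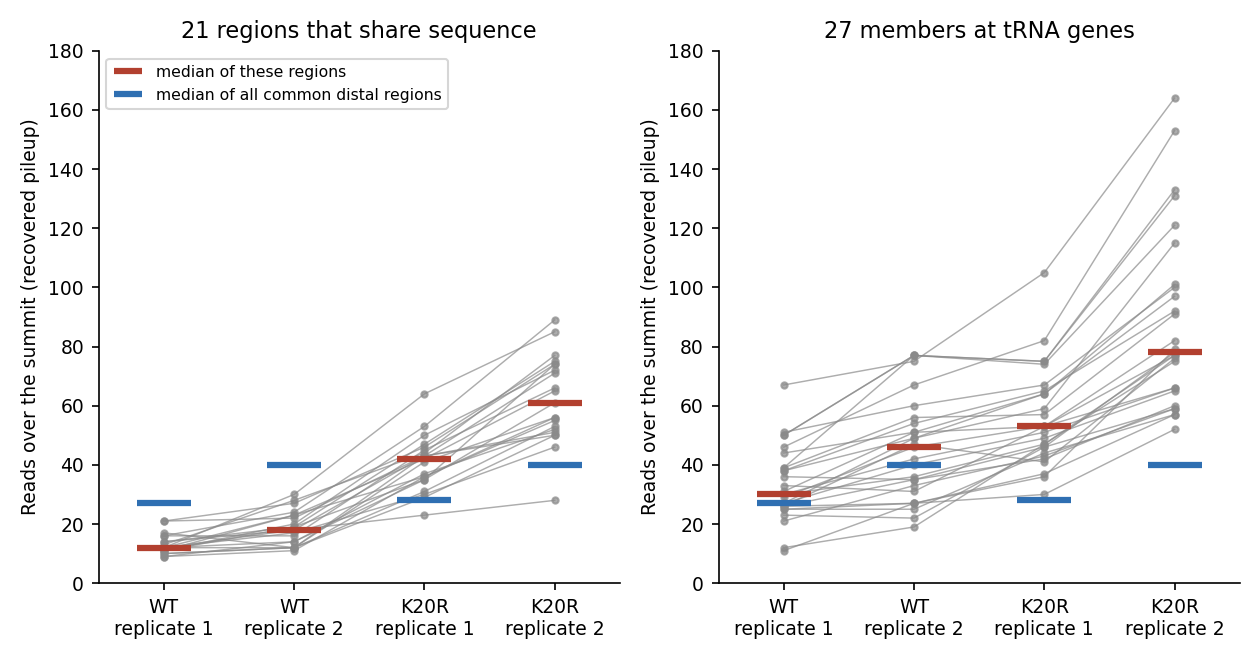
Reads over the summit in each library, recovered from the deposited fold and p, for the 21 regions with shared sequence (left) and the 27 members at tRNA genes (right). Each grey line joins the values of 1 region, and bars mark the median of these regions and of all common distal regions. On the left the medians are 12 and 18 in WT against 42 and 61 in K20R, on the right 30 and 46 in WT against 53 and 78 in K20R.

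The largest set held 313 regions, of which 131 were members (41.9%) and 23 weakened. Its median ranks were 57.3 and 58.5 in WT against 78.6 and 80.1 in K20R, and 73.8% of its summits were in a repeat. The region near Tbl1xr1, a gene of a transcriptional corepressor complex, had 14 and 15 reads over the summit in WT against 50 and 61 in K20R. Both K20R libraries had more reads there than both WT libraries. The run of 20 bases in capitals above occurred at 415 places on the autosomes and in 87 merged regions. Of the 31 without a peak in all 4 lists, 14 had one in both K20R lists and no WT list, and none had one in both WT lists and no K20R list. The most common run of each of the other 7 sets of at least 20 regions was searched too. In order of size, 193, 9, 40, 327, 21, 34 and 5 regions with the run were not in all 4 lists. Of these, 24, 5, 7, 50, 2, 15 and 1 had a peak in both K20R lists and no WT list. Those with one in both WT lists and no K20R list numbered 16, 0, 2, 27, 3, 3 and 0. Over all autosomal regions not in all 4 lists, the shares were 5.94% and 20.0%. Regions with a run need not belong to its set, and the run of the set of 102 occurred at 43550 places. Unlike the set of 21, the largest set was mixed, with 53 regions below both WT ranks in both K20R libraries.

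Among the other sets of at least 20 regions, members numbered 19 of 102, 44 of 99, 9 of 45, 8 of 45, 9 of 40, 14 of 32 and 5 of 21, and weakened regions 7, 7, 1, 3, 2, 0 and 2. Of the 16 sets with at least 10 regions, 14 had a median difference above 0. The exceptions were a set of 18 with 1 member and 7 weakened regions (median −16.7 points) and a set of 12 with 1 member and 3 weakened regions (median −2.35 points). The direction was thus not common to all sets with shared sequence. The sets were not assigned to repeat families, since no repeat annotation was used. Not all of them were mostly repeats: in the set of 12 just named, 8.33% of summits were in a repeat.

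Summits in repeats were also more common among members. The summit base was in a repeat in 14.6% of members (13.4% to 15.9%), 9.51% of all common distal regions and 7.51% of weakened regions. Outside the sets with shared sequence the shares were 8.29%, 6.97% and 6.15%. The share increased with the rank difference, from 11.7% of members at 20 to 30 points to 25.2% at 50 to 60 points and 39.5% of the 86 at or above 60 points. At the same steps, the share in sets with shared sequence was 8.01%, 22.6% and 50.0%.

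**Figure D3:**
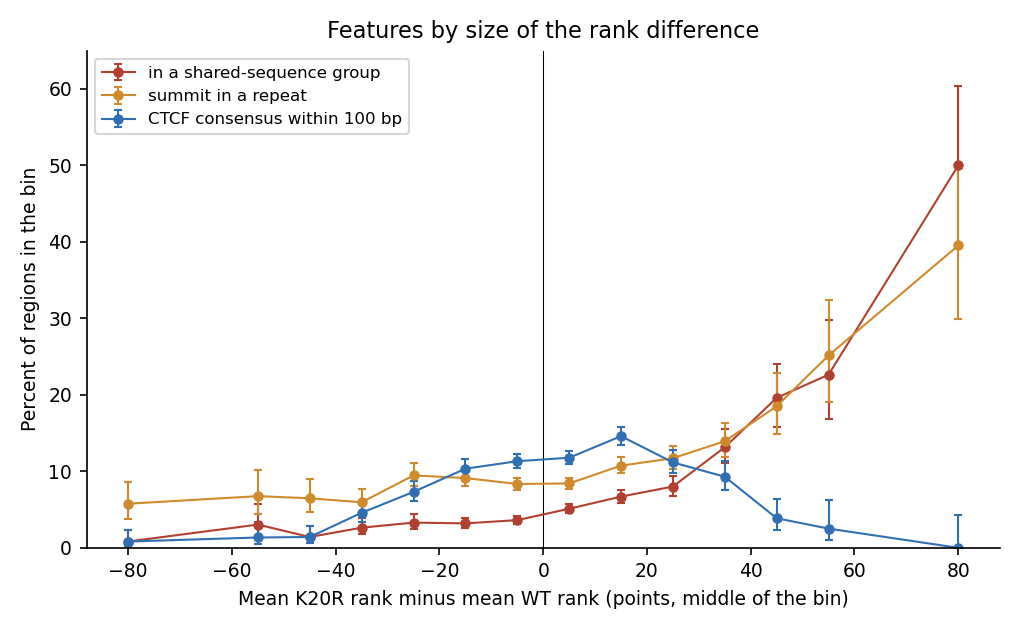
Share of regions with a summit in a repeat, in a set with shared sequence, and with the CTCF consensus (y axis, percent) by the difference in mean rank (x axis, points). Points are bins of all common distal regions, restricted beyond 20 points to members and weakened regions, and bars are Wilson 95% intervals. The first 2 shares reach 39.5% and 50.0% at the right end, and the share with the CTCF consensus is 0 there.

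tRNA genes had a high share of members in the ranking by p, though not in that by fold. RNA polymerase III reads them, and mouse chromosome 13 holds many of them beside the main cluster of histone genes. The strongest summit lay within 150 bp of a tRNA gene in 96 common distal regions, of which 27 were members (28.1%, 20.1% to 37.8%) and none was weakened, a share of at most 3.85%. Many of these sites were also in sets with shared sequence. Outside those sets, tRNA genes were at 0.292% of 2738 members and 0.175% of 22316 regions. With the sets included the shares were 0.861% and 0.407%. Both K20R ranks were above both WT ranks in 68 of the 96 and below them in 2. The difference in mean rank was above 0 in 89, with a median of 11.2 points. All tRNA sites had medians of 45.5 and 67 reads over the summit in WT against 67.5 and 103 in K20R. The 27 members had 30 and 46 in WT against 53 and 78 in K20R.

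The tRNA sites were of 20 amino acid types and members of 17, with 4 of 6 serine, 3 of 8 isoleucine and 1 of 11 alanine sites. Of the 27 members, 17 were on chromosome 13, which held 46 of the 96. Outside that chromosome, 10 of 50 were members (20.0%, 11.2% to 33.0%, an interval that held the 13.3% of all common distal regions), none was weakened, and the median difference was 5.26 points. Of the 96 genes, 73 held the letters GTTCGA, which occurred in 1.14% of all 201-base windows (either strand), and 21 of the 27 at members did. Ranked by reads over the summit, 25 were members and 85 of 96 sites were above both WT ranks. Ranked by fold, 8 of 96 were members, a smaller share than the 12.5% of all common distal regions in that ranking, with 28 above both WT ranks and 6 below. The excess of members at tRNA genes was thus lost when the fold was ranked.

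The most changed tRNA site was an isoleucine tRNA gene near Vmn1r223, a vomeronasal receptor gene (chr13:23269894-23270995). It had 12 and 19 reads in WT against 47 and 77 in K20R. A glutamate tRNA gene near Acpp, the gene of prostatic acid phosphatase, had 11 and 27 in WT against 30 and 52 in K20R. A leucine tRNA gene near Zfp184, a zinc finger gene, had 27 and 49 in WT against 64 and 97 in K20R. All 3 were higher in both K20R libraries than in both WT libraries.

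The stretches of up to 100 kb with the most members were then sought in the ranking by p, so their high counts follow from the choice. Over all common distal regions 13.3% were members. Within 100 kb, the most members lay on chromosome 13 between summits at 23425623 and 23519630, near Abt1, Btn1a1, Btn2a2 and Hist1h4h, where 9 of 16 common distal regions were members and 7 of the 9 were at tRNA genes. The next stretch, 55.2 kb of the same chromosome from 21882030 to 21937246 near Hist1h2br and Zfp184, had 6 members of 10 regions, 5 of them at tRNA genes. The third, on chromosome 12 from 104978610 to 105063928 near Syne3 and Glrx5, had 5 members of 8 regions and no tRNA gene. Neither stretch of chromosome 13 nor the one of chromosome 12 held a weakened region. By chromosome, members made up 10.7% (chromosome 9) to 16.6% (chromosome 10) of the common distal regions.

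**Figure D4:**
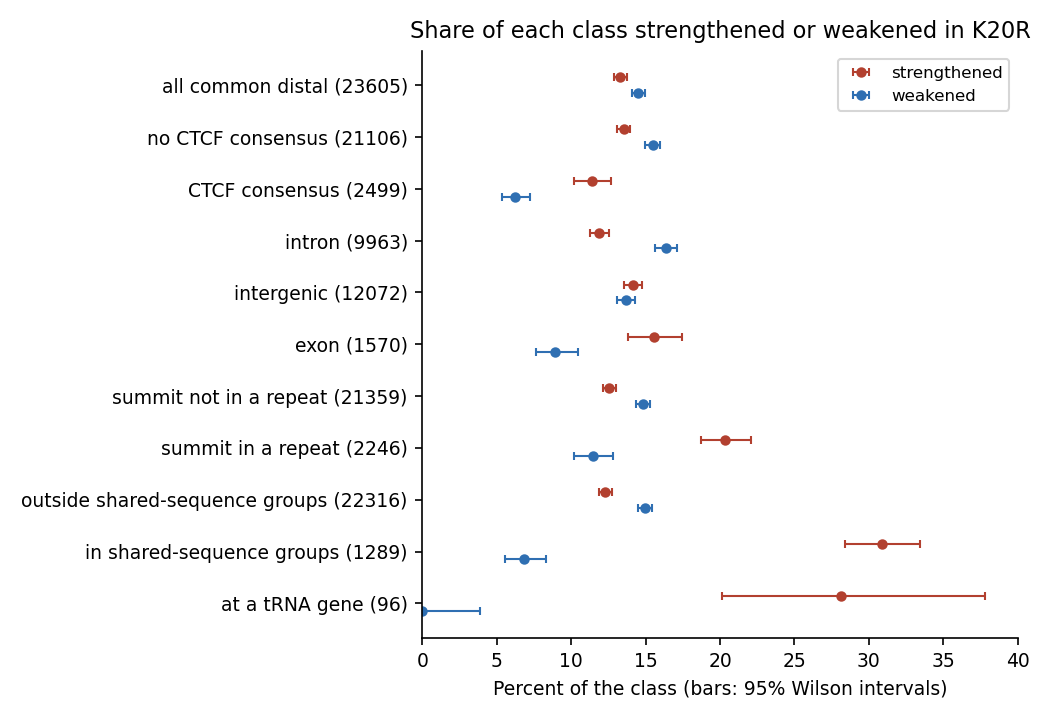
Share of each class of common distal regions that was strengthened or weakened in K20R (x axis, percent), with the number of regions in brackets. Points are shares and bars Wilson 95% intervals. Regions with shared sequence (30.9%) and at tRNA genes (28.1%) have the highest shares strengthened, and regions with the CTCF consensus have a low share weakened (6.24%). The classes of shared sequence and of tRNA genes overlap.

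CTCF was the protein changed in these cells, so both strands were searched for its consensus up to 100 bp from each summit. It was present in 284 members (9.06%, 8.10% to 10.1%), in 10.6% of all common distal regions and in 4.56% of weakened regions (3.91% to 5.31%). Seen from the sites, 11.4% of the 2499 regions with the consensus were members and 6.24% weakened, where 13.5% and 15.5% of the regions without it were. Regions with the consensus were therefore less often in either set than those without it, with the larger gap for the weakened set. With the regions of shared sequence left out, 10.3% of members had the consensus, against 11.03% of all and 4.56% of weakened regions. The gap between members and all regions was thus smaller there, and no interval was computed for it. With 1 mismatch allowed the shares were 27.5% of members, 30.4% of all and 18.4% of weakened regions. Among members the share decreased with the difference, from 11.2% at 20 to 30 points to 3.87% at 40 to 50 points, and it was 0 of 86 at or above 60 points, an upper bound of 4.28%. Within bands of the mean rank over all libraries the members' share stayed below that of all regions, for example 10.5% against 13.6% from rank 40 to 60. Without WT replicate 2, however, 11.6% of the regions chosen had the consensus, above the 10.6% of all regions.

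The 6 members with the consensus and the largest differences were near Syt6, Tomm40l, Tnk2, Armc3, Slc22a18 and Alox5ap, at 48.0 to 55.3 points. The region near Syt6, a synaptotagmin gene, had ranks of 12.1 and 17.3 in WT against 81.0 and 58.9 in K20R. That near Tnk2, a tyrosine kinase gene, had 25.6 and 22.3 in WT against 77.8 and 72.5 in K20R. At both regions the genotypes did not overlap in rank.

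Letters bound by factors of the early lineages were less common at members than at weakened sites. CAGCAGG, found in ZIC motifs, was within 100 bp in 15.5% of members (14.3% to 16.8%), 17.2% of all common distal regions and 23.1% of weakened regions. AGATAAG, bound by factors of the GATA family that act in mesoderm, endoderm and blood, was in 1.28% of members, 2.21% of all and 4.30% of weakened regions. TCACACCT (T-box factors) was in 0.67%, 1.13% and 2.08% in the same order, TGTTTAC (FOX factors) in 2.87%, 3.22% and 5.47%, ATCAAAG (TCF-LEF factors of WNT signalling) in 2.58%, 3.02% and 4.47%, and CAGCTG (an E-box) in 14.3%, 16.9% and 21.9%. For members, the ZIC, E-box, GATA and T-box shares were below that of all regions by more than the interval, and the FOX and TCF-LEF intervals held it. Weakened regions were above all regions for each of these 6.

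The opposite order was seen for CAGGTG, the E-box of SNAI and ZEB repressors, with 23.6% of members (22.1% to 25.1%), 20.9% of all and 18.8% of weakened regions. Outside the sets with shared sequence it was 21.8%, 20.5% and 18.6%. AACAATG (SOX factors) was in 3.99% of members (3.36% to 4.73%), 2.83% of all and 2.98% of weakened regions, and 4.24% of members outside the sets. TCAAGGTCA, bound by the pluripotency factor ESRRB, was in 17 members (0.542%) and 6 weakened regions (0.175%) where all had 0.343%, a value inside the members' interval (0.339% to 0.866%). ATGCAAAT (the octamer of POU factors) and TGANTCA (AP-1) were in 2.52% and 7.56% of members against 2.42% and 7.02% of all, with intervals that held the value of all regions.

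**Figure D5:**
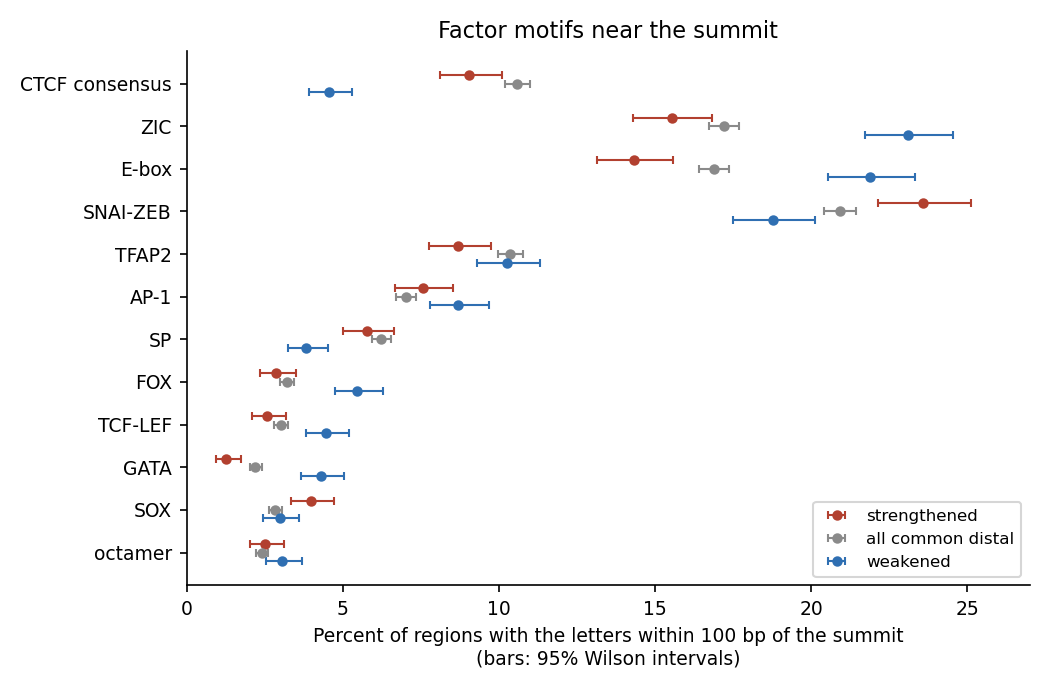
Share of strengthened, weakened and all common distal regions (x axis, percent) with the letters of each motif within 100 bp of the summit, either strand. Points are shares and bars Wilson 95% intervals. For ZIC, E-box, FOX, TCF-LEF and GATA letters the weakened regions lie to the right of members, and for the CTCF consensus, SNAI-ZEB and SP letters to the left.

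By position, members were less often in introns of protein-coding genes (37.8%, 36.1% to 39.5%) than all common distal regions (42.2%), and weakened regions more often (47.7%, 46.0% to 49.3%). Members were intergenic in 54.4% and exonic in 7.78%, where all were in 51.1% and 6.65% and weakened regions in 48.2% and 4.09%. The median distance to the nearest protein-coding TSS was 26.4 kb for members, 27.3 kb for weakened and 22.8 kb for all regions. The median GC content within 100 bp was 52.7% for members, 53.2% for weakened and 53.7% for all regions. The mean number of CpG dinucleotides in the same window was 5.15 for members, as for all regions, and 3.16 for weakened regions. RefSeq enhancers lay within 150 bp of the summit of 21 members (0.670%), 50 weakened regions (1.46%) and 260 of all (1.10%).

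Lists of lineage genes were used to place members by their nearest TSS. A peak within 1000 bp of a TSS was present in all 4 lists for 21 of 30 naive and core pluripotency genes, 20 of 30 genes of the primitive streak and early mesoderm, 16 of 26 cardiac, 16 of 21 endoderm and 21 of 25 neuroectoderm genes. Fibroblast and extracellular matrix genes, which feeder cells also use, had one for 17 of 26. Trophoblast and germline genes had one for 11 of 15 and hemato-endothelial genes for 13 of 20. The counts were thus high for every list and do not tell cell types apart. Near naive and core pluripotency genes, 17 of 94 common distal regions were members (18.1%) and 15 weakened. Near formative and primed pluripotency genes it was 7 of 91 members (7.69%) and 22 weakened, and near genes of the primitive streak and early mesoderm 6 of 72 (8.33%) and 19 weakened, where all common distal regions had 13.3% and 14.5%. The counts for the other lists were 7 of 69 members and 14 weakened for cardiac genes, 7 of 46 and 7 for hemato-endothelial, 5 of 49 and 10 for endoderm, 13 of 140 and 11 for neuroectoderm, 1 of 26 and 2 for trophoblast and germline, 3 of 47 and 9 for fibroblast, and 5 of 30 and 5 for CTCF and cohesin genes. These counts are small and have no interval, and their differences from all common distal regions were not tested.

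Among pluripotency genes, a region 23.1 kb downstream of the TSS of Prdm14, which guards the naive state, had ranks of 6.96 and 13.2 in WT against 54.0 and 66.9 in K20R. One upstream of Tcl1, an AKT coactivator gene, had 34.6 and 47.5 in WT against 89.2 and 81.8 in K20R. One 21.05 kb downstream of Sox2, a core pluripotency factor, had 5.31 and 5.80 in WT against 39.1 and 54.3 in K20R, so that it moved from the weakest sites to the middle. In the formative list, a member lay 35.5 kb upstream of Sox4 (14.7 and 18.3 in WT against 62.9 and 49.6 in K20R), and 2 lay in the gene desert next to Cdh2, the gene of N-cadherin.

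In the primitive streak list, one member lay in an exon of Nodal, the ligand that induces the streak, with ranks of 35.0 and 19.0 in WT against 75.3 and 62.4 in K20R. One in an intron of Dll3, a Notch ligand gene, had 53.2 and 36.8 in WT against 73.8 and 84.8 in K20R. One 29.3 kb downstream of T, the gene of brachyury, had 0.226 and 24.5 in WT against 50.0 and 39.0 in K20R, with the WT libraries far apart. Near cardiac genes, regions in introns of Myl4 and Myh6, genes of contractile proteins of the atrium, had 14.7 and 4.84 in WT against 75.1 and 37.1 in K20R, and 14.7 and 8.73 in WT against 60.9 and 48.1 in K20R. The third, nearest to Myl2 and in an intron of Ccdc63, had 25.5 and 17.7 in WT against 61.9 and 61.5 in K20R.

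Among blood and vessel genes, the member near Lmo2, a cofactor of blood formation, had ranks of 14.7 and 34.8 in WT against 72.4 and 80.1 in K20R, and those near Fli1 and Tbx1 differed by 28.9 and 28.4 points. Near endoderm genes the differences were 26.8 (Epcam) and 23.6 points (Col4a2). Near neuroectoderm genes, a region 187.9 kb downstream of Pax3 had 6.96 and 45.5 in WT against 81.0 and 66.2 in K20R, and members near Hes3 and Zic1 differed by 33.0 and 29.3 points. The germline list had 1 member, in an intron of the meiosis gene Stra8, with 43.4 and 46.8 in WT against 82.7 and 86.8 in K20R.

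Zeb2, a repressor of epithelial genes that is counted in the fibroblast list, had 2 members upstream of its TSS, at 41.3 and 108.2 kb. The nearer had ranks of 20.7 and 7.57 in WT against 60.01 and 61.3 in K20R, and the other 32.2 and 23.6 in WT against 68.5 and 74.96 in K20R. Of the genes of CTCF partners, a region nearest to Top2b, the topoisomerase gene, had 26.4 and 71.6 in WT against 86.8 and 84.5 in K20R, with a wide gap between the WT libraries. Members nearest to Esco1, which acetylates cohesin, and to Adnp, a partner of chromatin remodellers, differed by 30.9 and 28.6 points.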

How the data were processed

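ATAC-seq was performed on 2 WT and 2 CTCF-K20R libraries of day 4 embryoid bodies, grouped by their titles. The genotype label of the K20R libraries also holds the word wild, and they were read as K20R from the title. Per the methods of the study, reads were trimmed with Trim Galore and placed on mm10 with Bowtie2. Poorly mapped, duplicate and blacklisted reads were discarded, and MACS2 called the peaks. Each of the 4 deposited lists gives for a peak a whole-number score (not used further), the fold enrichment of the summit (a ratio), the −log10 p-value and the −log10 q-value by the authors, and the offset of the summit. The peak numbers in the lists have gaps, and the reason is not given in the sources used here. Read totals are unknown. Peaks in the lists went down to a −log10 p of 2.00 in WT and 2.02 in K20R, so a peak in all 4 lists can be weak. The member near Clec2l, for example, had a −log10 p of 3.22 and 2.70 in WT.

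Overlapping peaks (1 bp) were merged, and the ranking and the rule are given with the results. The stretches left out were chr8:61927660-112046551 and chr2:127308572-131210774. The number of reads over each summit was solved from the fold and p that were deposited, and came out whole (within 0.02) for 100% of peaks. Genes came from GENCODE vM21 (basic set), and sequence, lower-case repeats, tRNA genes and enhancers from RefSeq GRCm38.p6. The members, lists and motifs were chosen with earlier results of these data known, and the sets with shared sequence, tRNA genes and enhancers were examined after the values had been seen. Named regions were the 12 members with the largest difference, the 6 such with the CTCF consensus, up to 3 for each of 10 gene lists, 3 to each side of the limit and the 3 densest stretches. A few regions that this rule names are not reported here. ZNF143, CRE, YY1, NRF1, ETS, NFY, KLF, SP, OTX, TFAP2, GRHL, TEAD and HOX-PBX motifs were searched as well. Since the rule used all 4 libraries, genotype differences at members were described with no test. Shares carry Wilson 95% intervals where these are printed, and those of the gene lists have none. The steps were tested on simulated data. Python 3.11.15, pandas 2.3.3 and SciPy 1.17.1 were used.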

Additional observations from a re-analysis of the deposited data

How the results depend on the processing

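Of 135 values under alternative settings, 83 stayed close to the value reported and 52 moved. Set against all common distal regions under the same setting, where that value was computed, 2 results turned. Members at tRNA genes were 8 of 96 ranked by fold, below the 12.5% of all regions, and the CTCF share of members was above the 10.6% of all regions at 10 points (10.9%) and without WT replicate 2 (11.6%). No such value was computed for GC content, TSS distance or ZIC letters. The ZIC share of members, not among the 135, was 18.4% at −log10 q of at least 10 and 17.7% with summits within 150 bp. In the main ranking all regions had 17.2%. The number of members was 5593 with a limit of 10 points, 1489 with 30 points, 1288 where −log10 q was at least 10 in all 4 lists, 1918 with summits within 150 bp and 1901 with 20 points required within both replicate numbers (the replicate block). The regions chosen were not always the same ones. At −log10 q of at least 10, 8956 regions were ranked anew, and only 518 of the 3136 members were among the 1288. Ranked by fold 2359 of the 3136 were chosen again, and ranked by reads 2336. The share with the CTCF consensus was 10.9%, 6.72%, 11.8% and 7.52% for the limits of 10 and 30 points, the summits and the block, 7.49% within 50 bp, 27.5% with 1 mismatch and 10.3% outside sets with shared sequence. The share in repeats was 16.2% ranked by reads, 12.9% and 17.7% at 10 and 30 points, 15.9% with the block and 8.29% outside sets. The share in sets was 10.8% ranked by fold, 15.2% ranked by reads, 10.2% and 17.9% at 10 and 30 points, 15.6% with the block, 15.7% and 9.50% with runs of 16 and 25 bases, and 16.4% and 8.16% with 5 and 20 runs. Members at tRNA genes numbered 8 ranked by fold, 48 and 12 at 10 and 30 points, 13 with the summits and 16 with the block. The set of 21 kept 2 of the 2 regions ranked at −log10 q of 10 and 8 of the 8 with summits within 150 bp. The share in introns was 39.8% at 30 points and 35.0% at −log10 q of 10, the median GC content 54.7% at −log10 q of 10 and 50.6% in the widest window, and the median TSS distance 28.4 kb (fold), 23.9 kb (10 points, and also −log10 q of 10), 28.2 kb (30 points, and also the block) and 30.4 kb (over 5 kb from a TSS). In libraries not used to choose, the median was 20.4 points for replicate 2, 23.4 at 30 points and 15.3 by fold. Leaving out 1 library gave 3511 to 3758 members, of which 9.28% to 11.6% had the consensus, 37.6% to 39.6% were in introns, 13.4% to 14.3% in repeats and 11.1% to 12.05% in sets, and 25 to 38 at tRNA genes. The cause of these shifts was not tested. The settings on sets, tRNA genes and regions outside sets were chosen after seeing the data.

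The replicate block paired libraries by number, with no test. The labels give the libraries a shared number only: WT and K20R replicate differences correlated at 0.0301 across regions. With 2 libraries a genotype and unknown read totals, differences in rank are relative to the other common distal regions.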

Other observations

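A summit within 1 kb of a non-coding TSS was present in 6.31% of members, 4.30% of weakened regions and 6.79% of all common distal regions. The nearest protein-coding TSS was over 100 kb away for 16.4% of members, 16.3% of weakened regions and 13.8% of all. On chromosome 14, 22.6% of the common distal regions were weakened and 11.1% were members. CCGGAAGT, bound by ETS factors, was in 0.733% of members and 0.146% of weakened regions, where all had 0.614%.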
